A study of Homo sapiens with 12 samples.

Results

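The glycolysis and hypoxia-response genes described here are 37 genes taken by name from a table of 60591 genes: a row belonged to the set where its symbol equalled 1 of the 37 names. By role they comprised 3 transporters of glucose or lactate, 15 glycolytic enzymes, 3 kinases that set the flux into and out of glycolysis, 14 other targets of the hypoxia-inducible factors (HIF), and the HIF alpha subunits HIF1A and EPAS1. All 37 were among the 19108 genes that passed the filter on low counts. A gene was called higher or lower at an adjusted p under 0.05 by the quasi-likelihood test of edgeR, adjusted after Benjamini-Hochberg over all 19108 genes, and changes are given on the log2 scale with their standard errors (SE).

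RNA-seq was performed on polyA RNA of PC9 and H1650 cells, established non-small cell lung cancer (NSCLC) lines that the study describes as EGFR-mutant and whose genotype the labels give as Wild-type. In each line, cells were collected at 0 h with DMSO (T0), after 36 h with 10 µM erlotinib, or after 36 h with 0.1 µM osimertinib, and both drugs inhibit the EGFR kinase. Each of the 6 groups held 2 replicates, which the study calls biological, so 12 libraries were analysed. As DMSO cells were collected at 0 h only in the samples analysed here, drug and time in culture cannot be told apart in any comparison with T0. Osimertinib and erlotinib were compared at the same time but at different doses.

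Glycolysis breaks glucose down to pyruvate in the cytosol, and many tumor cells run it at a high rate even where oxygen is present, passing pyruvate on to lactate through LDHA. Where oxygen is scarce, the HIF alpha subunits escape the prolyl hydroxylases of the EGLN family, pair with ARNT and bind short ACGTG or GCGTG sequences beside their target genes. Those targets include many glycolytic enzymes, the glucose transporter SLC2A1, and genes for pH control, blood vessel growth, mitophagy and collagen synthesis. HIF1A is controlled largely at the level of its protein, which RNA-seq does not measure.

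The libraries held 17961765 to 26346187 gene reads (median 21581420.5). A count of 0 allows up to 3 reads, or 0.116 to 0.168 normalized CPM (CPM after scaling of the library sizes), and this limit covers counting error only. All 6 epithelial marker genes examined had at least 185 normalized CPM in every library, and their summed level was 8343 to 8424 normalized CPM in PC9 T0 cells, 6576 to 6650 with erlotinib and 9430 to 10162 with osimertinib, and 6446 to 6730, 5464 to 5514 and 8274 to 8994 in H1650 cells. All 6 were called higher in H1650 cells with osimertinib than at T0, and 5 of 6 were higher with osimertinib than with erlotinib in each line. Of 8 markers of blood, endothelial cells and fibroblasts, CD3E and PTPRC did not exceed 0.224 normalized CPM and COL1A1 lay between 9.96 and 44.8. The lowest COL3A1 value was 0 in PC9 and 6.75 in H1650 cells, and its highest over all libraries was 19.9. CD68, PECAM1, VWF and PDGFRB did not exceed 2.22. The summed level of these 8 markers was 20.9 to 23.1 normalized CPM in PC9 T0 cells, 21.9 to 25.9 with erlotinib and 39.2 to 48.9 with osimertinib. In H1650 cells it was 24.6 to 25.3, 18.02 to 19.2 and 33.8 to 35.5, respectively. Mitochondrially encoded genes took 4.541 to 5.170% of the reads in PC9 T0 cells and 6.324 to 7.202% in the treated libraries, and 4.365 to 5.362% and 5.769 to 6.605% in those of H1650, without overlap. The part of these levels in the results was not tested.

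To compare the lines before treatment, levels at T0 were examined first. In both lines the most abundant members were glycolytic enzymes, mostly of the later steps, whereas H1650 cells had more RNA of most of the 14 other HIF targets. The count of the aldolase ALDOA is uncertain, as given below, and so is its place among the members. Per kilobase of exon, GAPDH, the enzyme that oxidizes glyceraldehyde 3-phosphate, had the highest level of all members in both lines, at 1853 ± 36.0 normalized CPM per kb in PC9 cells and 2254 ± 35.5 in H1650 cells (SD, n = 2). In PC9 cells ENO1 followed at 484 ± 14.5, then TPI1 at 365 ± 6.30, PKM at 349 ± 2.65 and LDHA at 347 ± 15.2 normalized CPM per kb (SD, n = 2). PKM and LDHA lay within their spread of each other, and SLC2A1, a glucose importer, came next at 119 ± 4.54. In H1650 cells the order after GAPDH was ENO1 at 579 ± 2.14, PKM at 395 ± 9.91, TPI1 at 318 ± 8.43, PGAM1 at 283 ± 5.35 and LDHA at 212 ± 11.4 normalized CPM per kb (SD, n = 2). The lowest levels were those of PPFIA4 in PC9 cells, at 0.157 normalized CPM per kb, and of CA12 in H1650 cells, at 0.133. The order depends on the lengths used, 8571 bases for PKM, 6038 for LDHA, 5216 for ENO1 and 2700 for TPI1. Without division by length, PKM followed GAPDH in PC9 cells at 2989 ± 22.7 normalized CPM (SD, n = 2). ENO1 was then at 2524 ± 75.6, LDHA at 2098 ± 91.6 and TPI1 at 985 ± 17.0. In H1650 cells PKM was likewise above ENO1, at 3386 ± 84.9 against 3019 ± 11.2.

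Of the 37 members, 35 differed between the lines at T0, which is 94.6%, against 69.6% of all genes tested. The latter share depends on the count filter. Where each library had to hold 10 or more reads of a gene, 9873 of 13076 genes were called, a larger share. In H1650 cells 22 members were higher and 13 lower than in PC9 cells, and 26 of the 35 kept their call in every fit that left out 1 library. Of the 14 other HIF targets, 12 were higher in H1650 cells and 1 was lower, with a median log2 difference of 1.55. Of the 12, ANKRD37 lost its call without H1650 T0 replicate 1 (adjusted p = 0.125) or PC9 T0 replicate 2 (adjusted p = 0.299), and EGLN1 without H1650 T0 replicate 1 (adjusted p = 0.166). Of the 15 enzymes, 6 were higher and 9 lower, with a median of -0.26, and the median over all genes tested was 0.039. The enzymes ALDOA, ALDOC, PKM and TPI1 lost their call in 1 or more fits that left out 1 library.

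SLC2A3, a high-affinity glucose transporter known from neurons, was at 6.00 and 6.47 normalized CPM in the PC9 T0 libraries and at 72.99 and 69.9 in those of H1650. CA9, a membrane carbonic anhydrase that takes part in pH control and is used as a marker of hypoxia, was at 0.403 and 1.04 in PC9 and at 12.5 and 10.4 in H1650. PPFIA4, a gene of the liprin scaffold family, was at 1.46 and 1.58 in PC9 and at 13.1 and 13.7 in H1650. The lines did not overlap for any of these genes, and the log2 difference was 3.52 for SLC2A3 (SE 0.11, adjusted p = 1.19e-20), 3.97 for CA9 (SE 0.30, adjusted p = 2.22e-12) and 3.14 for PPFIA4 (SE 0.23, adjusted p = 9.17e-13). ADM, NDRG1, EGLN3 and BNIP3 were also higher in H1650 cells, by 2.16, 1.86, 1.76 and 1.75 on the log2 scale, and P4HA2 and P4HA1 by 1.58 and 1.52.

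In the opposite direction, CA12, another membrane carbonic anhydrase, was at 7.81 and 7.21 normalized CPM in PC9 and at 0.933 and 0.926 in H1650, a log2 difference of -3.01 (SE 0.27, adjusted p = 1.29e-10). ENO2, the neuronal enolase, was at 49.00 and 47.04 in PC9 and at 11.8 and 10.3 in H1650, again without overlap. Its log2 difference was -2.12 (SE 0.12, adjusted p = 2.8e-15), and the major enolase ENO1 went the other way, at 0.26 (SE 0.066, adjusted p = 0.00115). The hexokinases were divided in the same manner, HK2 being higher in H1650 cells by 0.58 and HK1 lower by 0.56. LDHA was lower in H1650 cells by 0.71 (SE 0.071, adjusted p = 8.48e-10) and PGAM1 higher by 1.29 (SE 0.069, adjusted p = 1.43e-15). VEGFA, the vascular growth factor, had a log2 difference of 0.17 (adjusted p = 0.0528) and, like PDK1 (adjusted p = 0.764), was not called.

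Of the subunits, EPAS1, which encodes HIF-2 alpha, was higher in H1650 cells by 0.48 (SE 0.068, adjusted p = 5.18e-07). HIF1A had a value of -0.19 (adjusted p = 0.0268), a call lost without any 1 of the 4 T0 libraries (adjusted p of 0.0557 to 0.136).

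**Figure D1:**
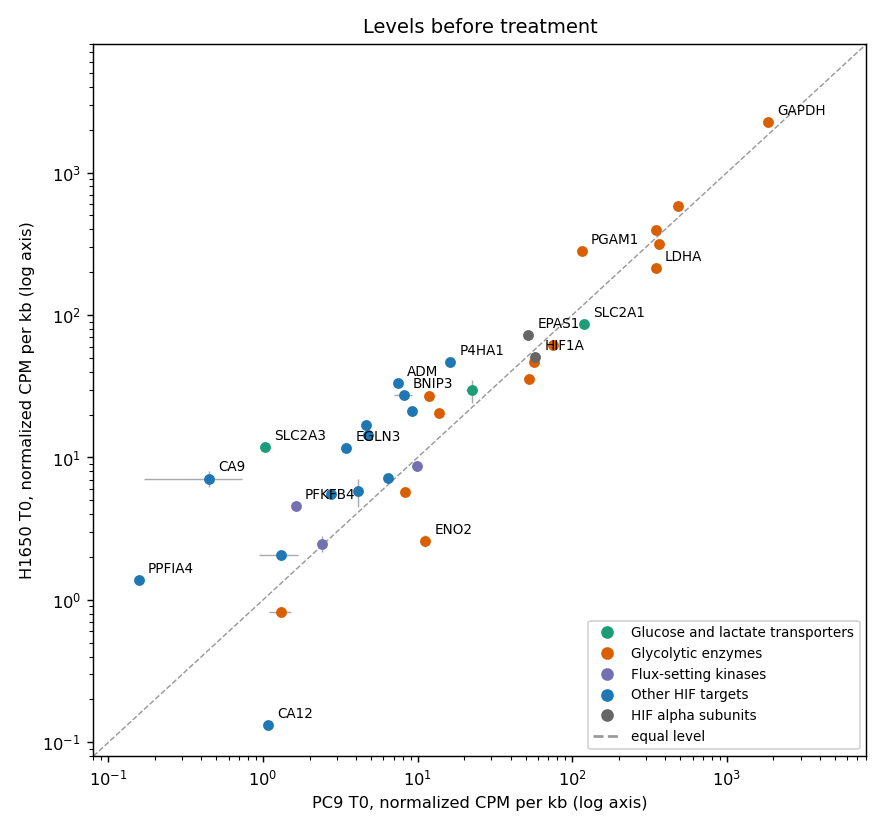
Levels of 36 members at T0 in normalized CPM per kb of exon, with PC9 on the horizontal and H1650 on the vertical log axis; points are means of 2 libraries, bars are SD and colours are roles. The abundant enzymes at the top right lie near the line of equal level, most other HIF targets lie above it, and CA12 and ENO2 lie below. ALDOA is left out because its counts are uncertain.

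The next question was how these genes differed from T0 in PC9 cells under EGFR inhibition. With either drug most glycolytic enzymes were lower than at T0, among them LDHA, HK2 and ENO2, and so was the kinase PDK1, whereas NDRG1, EGLN3, SLC2A3, PFKFB3 and ALDOC were higher. With erlotinib 24 of the 37 members were lower and 9 higher, so 89.2% were called, against 61.8% of all genes tested. With osimertinib 24 were lower and 9 higher, so 89.2% were called, against 61.4% of all genes tested. Under the filter of 10 reads per library, 9493 and 9535 of 13076 genes were called with erlotinib and osimertinib, again larger shares. These comparisons share their T0 libraries. In fits that left out 1 library, 31 of 33 calls were kept throughout with erlotinib and 30 of 33 with osimertinib. As these are bulk samples, fewer cells with a transcript and less of it per cell cannot be told apart.

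Of the 15 enzymes, 12 were lower and 1 higher with erlotinib, with a median log2 fold change of -0.97, and 12 were lower and 1 higher with osimertinib, with a median of -0.92. The median of all genes tested was 0.074 and 0.064. LDHA, which reduces pyruvate to lactate, was at 2033 and 2162 normalized CPM at T0, at 487 and 534 with erlotinib and at 656 and 699 with osimertinib. Every treated library was below both T0 libraries, and LDHA fell by 2.04 on the log2 scale with erlotinib (SE 0.074, adjusted p = 2.67e-19) and by 1.63 with osimertinib (SE 0.073, adjusted p = 2.66e-17). HK2, the inducible hexokinase that traps glucose in the cell, was at 79.1 and 84.2 at T0, at 20.8 and 21.3 with erlotinib and at 19.8 and 20.9 with osimertinib. The treated groups overlapped each other and lay far below T0, and HK2 fell by 1.95 (SE 0.085, adjusted p = 2.01e-17) and by 2.01 (SE 0.087, adjusted p = 1.65e-17). ENO2 was at 12.6 and 10.9 with erlotinib and at 9.90 and 9.87 with osimertinib, against the T0 values of 49.00 and 47.04. It fell by 2.03 (SE 0.12, adjusted p = 8.08e-15) and by 2.28 (SE 0.12, adjusted p = 1.36e-15), the latter being the lowest fold change of the 37 members with osimertinib.

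Enzymes at the other steps also fell in PC9 cells. ENO1, which makes phosphoenolpyruvate, fell by 1.63 with erlotinib and 1.77 with osimertinib, and PGAM1, the phosphoglycerate mutase, by 1.61 and 1.32. PKM, the pyruvate kinase, fell by 1.30 and 0.92, and HK1, the constitutive hexokinase, by 1.04 and 1.05. GPI, the glucose 6-phosphate isomerase, fell by 0.97 and 1.03 and TPI1, the triose phosphate isomerase, by 0.86 and 0.84. GAPDH was at 4380 and 4502 normalized CPM at T0, at 2730 and 2945 with erlotinib and at 3001 and 3297 with osimertinib. The T0 libraries were again the highest, and GAPDH fell by 0.65 (SE 0.068, adjusted p = 2.68e-09) and 0.50 (SE 0.068, adjusted p = 3.04e-07). PFKP and PFKL, the platelet and liver forms of phosphofructokinase, fell by 0.42 and 0.40 with erlotinib and by 0.31 and 0.28 with osimertinib. The PFKL call with osimertinib was lost without PC9 T0 replicate 1 (adjusted p = 0.0817) or PC9 osimertinib replicate 2 (adjusted p = 0.0688). The muscle form PFKM was called with neither erlotinib (adjusted p = 0.334) nor osimertinib (adjusted p = 0.792).

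ALDOC, the brain aldolase, rose where the other called enzymes fell. It was at 3.02 and 3.80 normalized CPM at T0, at 13.97 and 13.2 with erlotinib and at 11.01 and 11.2 with osimertinib. All treated libraries were thus above T0, with log2 fold changes of 1.99 (SE 0.18, adjusted p = 2.14e-10) and 1.70 (SE 0.19, adjusted p = 6.63e-09). The main aldolase ALDOA was called with neither drug (adjusted p = 0.513 and 0.32). However, ALDOA was counted at 373 to 865 reads per library, and 42.3% of its exon bases are shared with the gene model AC093512.2 on the same strand in GENCODE 29, so its level is uncertain. Without ALDOA, the median of the 14 other enzymes was -1.01 and -0.98.

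Promoters are shown for 5 members, for LDHA, HK2 and ALDOC because these enzymes moved apart in PC9 cells, and for PPFIA4 and CA9 because the drugs differed most at these genes in H1650 cells. Each is 300 bases from RefSeq on GRCh38.p14, from 250 before to 50 after the start, 5′ to 3′ on the strand of the gene, and capitals mark ACGTG or GCGTG on either strand, where overlapping matches run together. The windows are chr11:18394313-18394612 (+) for LDHA, chr2:74833877-74834176 (+) for HK2, chr17:28576846-28577145 (-) for ALDOC, chr1:203026241-203026540 (+) for PPFIA4 and chr9:35673678-35673977 (+) for CA9.
LDHA: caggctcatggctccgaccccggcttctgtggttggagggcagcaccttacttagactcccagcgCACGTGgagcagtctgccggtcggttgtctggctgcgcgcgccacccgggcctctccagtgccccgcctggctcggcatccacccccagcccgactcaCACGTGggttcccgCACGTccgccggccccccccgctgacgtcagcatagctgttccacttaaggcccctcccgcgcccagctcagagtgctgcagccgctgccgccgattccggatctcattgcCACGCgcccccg
HK2: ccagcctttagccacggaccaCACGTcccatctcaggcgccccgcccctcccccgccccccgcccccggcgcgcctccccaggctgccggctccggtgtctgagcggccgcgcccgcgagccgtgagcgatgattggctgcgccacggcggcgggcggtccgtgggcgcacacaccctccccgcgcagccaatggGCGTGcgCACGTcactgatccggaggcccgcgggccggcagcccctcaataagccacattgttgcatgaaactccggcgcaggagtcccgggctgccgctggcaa
ALDOC: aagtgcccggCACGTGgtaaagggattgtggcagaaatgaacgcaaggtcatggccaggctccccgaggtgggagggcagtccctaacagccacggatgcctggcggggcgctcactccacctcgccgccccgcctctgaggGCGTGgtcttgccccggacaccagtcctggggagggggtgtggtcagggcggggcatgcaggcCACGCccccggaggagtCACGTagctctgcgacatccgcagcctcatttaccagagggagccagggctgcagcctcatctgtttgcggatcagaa
PPFIA4: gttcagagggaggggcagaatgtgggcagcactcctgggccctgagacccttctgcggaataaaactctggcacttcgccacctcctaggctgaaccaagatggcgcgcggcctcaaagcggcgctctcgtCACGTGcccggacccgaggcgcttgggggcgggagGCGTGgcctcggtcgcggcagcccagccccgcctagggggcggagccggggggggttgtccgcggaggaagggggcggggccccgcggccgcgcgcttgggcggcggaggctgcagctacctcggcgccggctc
CA9: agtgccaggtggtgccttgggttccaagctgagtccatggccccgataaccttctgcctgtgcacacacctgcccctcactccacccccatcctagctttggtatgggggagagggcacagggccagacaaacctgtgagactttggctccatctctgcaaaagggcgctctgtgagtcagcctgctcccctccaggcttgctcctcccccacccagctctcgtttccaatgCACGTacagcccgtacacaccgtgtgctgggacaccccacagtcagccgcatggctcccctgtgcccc
LDHA held 5 ACGTG and 1 GCGTG, the most ACGTG of the members matched. ALDOC, which rose in PC9 cells, held 3 and 2, and HK2, which fell, held 2 and 1. PPFIA4 held 2 and 1, and CA9 held 1 and 0. A promoter was matched for 33 of the 37 members. The first promoter listed for each symbol was used, so other starts of a gene were not searched. For many members the whole window lies inside the annotated span of the gene. GPI, PGAM1, GAPDH, ENO1, PFKP and, among the promoters printed, ALDOC are examples. ACGTG was found in 13 of them (39.4%), in 25.8% of the 12201 promoters of genes tested and in 21.6% of all 27305 promoters. GCGTG was found in 48.5%, 49% and 36.3%, respectively. Among the enzymes 7 of 15 promoters held ACGTG and among the other HIF targets 6 of 11. A palindrome (CACGTG) counted on both strands, and the matches describe the letters of these windows only. SLC2A3, VEGFA, BNIP3L and NDRG1 were not matched.

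**Figure D2:**
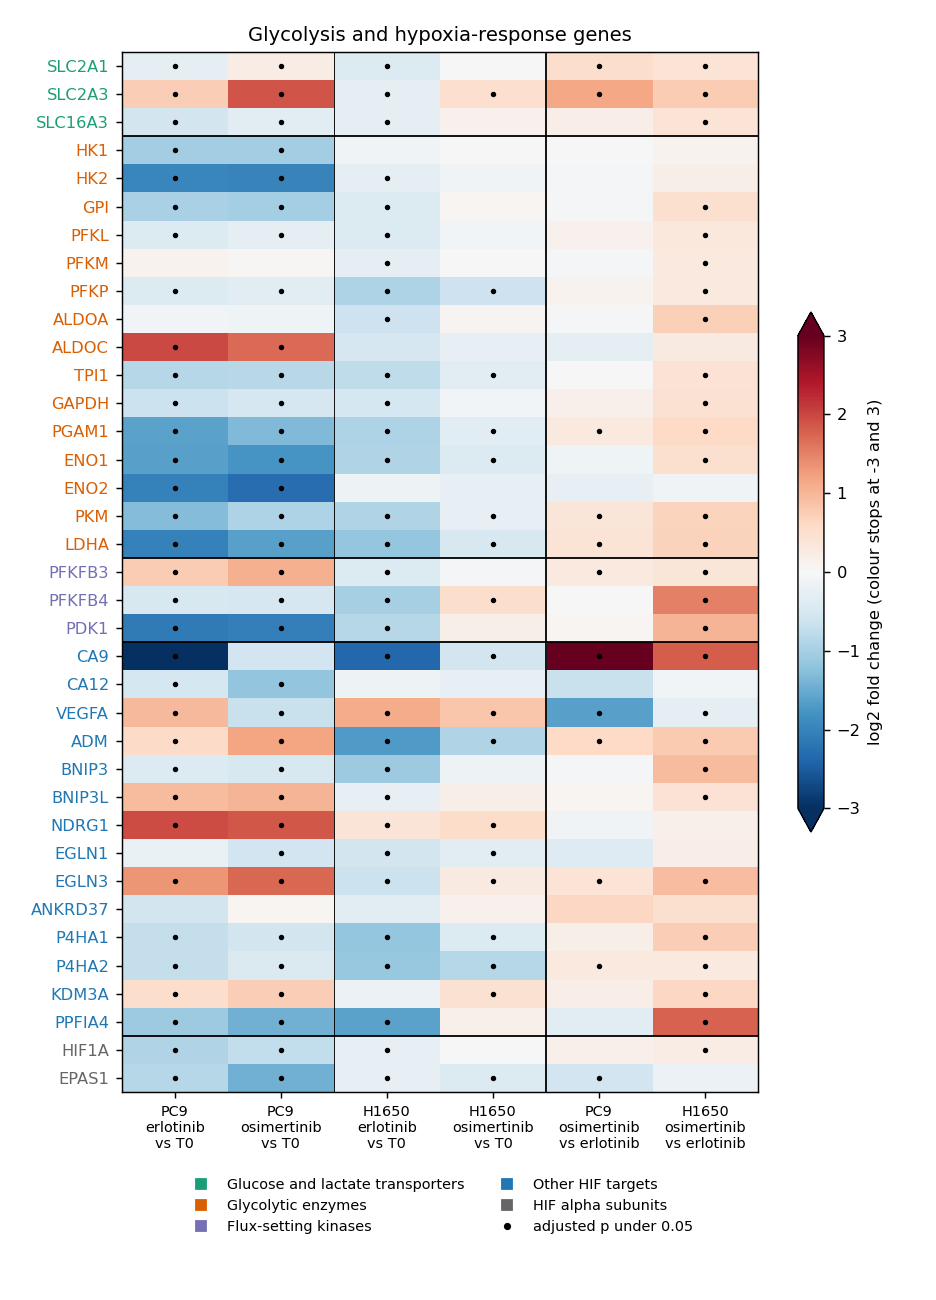
Log2 fold change of all 37 members (rows, grouped by role) in 6 comparisons (columns), with red for higher, blue for lower and a dot where the adjusted p was under 0.05. In the PC9 columns against T0, 24 members are lower and 9 higher with each drug, and in H1650 cells 29 are lower with erlotinib and 12 with osimertinib. The colour scale stops at -3 and 3.

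The flux-setting kinases were divided in PC9 cells. PDK1, which inhibits pyruvate dehydrogenase and so keeps pyruvate out of mitochondrial oxidation, was at 36.1 and 35.8 normalized CPM at T0, at 8.06 and 8.43 with erlotinib and at 8.14 and 9.25 with osimertinib. No treated library came near T0, and PDK1 fell by 2.12 (SE 0.12, adjusted p = 5.36e-15) and 2.05 (SE 0.12, adjusted p = 1.56e-14). PFKFB3 and PFKFB4 both make the bisphosphate that activates phosphofructokinase. PFKFB3 rose by 0.76 and 1.06, while PFKFB4 fell by 0.47 and 0.49. Among the transporters, SLC2A3 was at 11.4 and 9.45 normalized CPM with erlotinib and at 23.3 and 22.8 with osimertinib, all above its T0 values of 6.00 and 6.47. It rose by 0.73 (SE 0.13, adjusted p = 1.9e-05) and 1.89 (SE 0.12, adjusted p = 1.04e-13). SLC16A3, which exports lactate, fell by 0.54 and 0.35, and the latter call was lost without PC9 T0 replicate 1 (adjusted p = 0.0779). SLC2A1 fell by 0.29 with erlotinib and rose by 0.23 with osimertinib, and this rise was not called without PC9 T0 replicate 2 (adjusted p = 0.0771).

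The 14 other HIF targets were divided in PC9 cells. With erlotinib 6 were higher and 6 lower, with a median log2 fold change of -0.30, and with osimertinib 5 were higher and 7 lower, with a median of -0.45. The latter median was -0.27 without PC9 T0 replicate 2, and -0.13 over the 12 targets with at least 10 counts in each library. NDRG1, a stress-induced gene that restrains growth, was at 45.6 and 45.8 normalized CPM at T0, at 173 and 181 with erlotinib and at 159 and 171 with osimertinib. It was higher in every treated library and rose by 1.95 (SE 0.087, adjusted p = 3.3e-17) and 1.85 (SE 0.087, adjusted p = 9.83e-17). EGLN3, a prolyl hydroxylase that marks HIF alpha for destruction, was at 24.2 and 26.5 at T0, at 62.2 and 65.2 with erlotinib and at 82.04 and 86.7 with osimertinib. The groups did not overlap, and EGLN3 rose by 1.33 (SE 0.093, adjusted p = 6.94e-13) and 1.73 (SE 0.093, adjusted p = 1.91e-15). BNIP3L, a mitophagy receptor, rose by 0.96 and 1.02, while its relative BNIP3 fell by 0.42 and 0.48. KDM3A, a histone demethylase, rose by 0.52 and 0.73, and ADM, the vasodilator peptide adrenomedullin, by 0.58 and 1.17. P4HA1 and P4HA2, alpha subunits of the collagen prolyl hydroxylase, fell by 0.72 and 0.72 with erlotinib and by 0.55 and 0.42 with osimertinib.

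VEGFA had opposite calls with the 2 drugs. It was at 94.6 and 90.3 normalized CPM at T0, at 190 and 171 with erlotinib and at 61.1 and 55.8 with osimertinib. No groups overlapped, and VEGFA rose by 0.97 with erlotinib (SE 0.078, adjusted p = 1.28e-11) and fell by 0.66 with osimertinib (SE 0.081, adjusted p = 4.99e-08). CA9 was counted in PC9 cells at 8 and 21 reads at T0, at 0 and 1 reads with erlotinib and at 10 and 9 reads with osimertinib. With erlotinib it was below both T0 libraries, with a ratio of normalized reads of 0.0288 (95% interval 0.000706 to 0.174, exact conditional Poisson, counting error only) and a call of lower (adjusted p = 2.39e-05), while 38.5% of its exon bases are shared with ARHGEF39 on the other strand. With osimertinib its log2 fold change was -0.58 (adjusted p = 0.31). CA12 was at 5.46 and 5.04 normalized CPM with erlotinib and at 3.24 and 3.42 with osimertinib, below its T0 values of 7.81 and 7.21. It fell by 1.17 with osimertinib (SE 0.23, adjusted p = 8.44e-05), whereas the erlotinib value of -0.52 lost its call without any 1 of the 4 libraries compared (adjusted p of 0.0843 to 0.177). PPFIA4 fell by 1.09 and 1.44, the former not called without PC9 erlotinib replicate 2 (adjusted p = 0.0792). These PPFIA4 values rest on low levels, 0.718 ± 0.188 normalized CPM with erlotinib and 0.543 ± 0.213 with osimertinib (SD, n = 2). ANKRD37 was called with neither drug (adjusted p = 0.113 and 0.884). EGLN1, the main HIF prolyl hydroxylase, fell by 0.57 with osimertinib and had a value of -0.19 with erlotinib (adjusted p = 0.246).

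Both HIF alpha subunits fell in PC9 cells. HIF1A was at 293 and 302 normalized CPM at T0, at 154 and 166 with erlotinib and at 175 and 180 with osimertinib. EPAS1 was at 371 and 387 at T0, at 201 and 218 with erlotinib and at 143 and 137 with osimertinib. All treated libraries lay below T0. HIF1A fell by 0.90 (SE 0.075, adjusted p = 2.72e-11) and 0.75 (SE 0.075, adjusted p = 1.05e-09), and EPAS1 by 0.85 (SE 0.069, adjusted p = 1.36e-11) and 1.44 (SE 0.070, adjusted p = 2.31e-16).

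In H1650 cells most of the members were lower with erlotinib than at T0, and fewer were with osimertinib. With erlotinib 29 of 37 were lower and 2 higher, which is 83.8%, against 36.5% of all genes tested. With osimertinib 12 were lower and 6 higher, which is 48.6%, against 35.7% of all genes tested. Under the filter of 10 reads per library, 6224 and 6121 of 13076 genes were called with erlotinib and osimertinib. The osimertinib share of the members lies close to the latter, so it is not read as an excess. In fits that left out 1 library, 23 of 31 calls were kept throughout with erlotinib and 15 of 18 with osimertinib. As in PC9 cells, these comparisons use the same T0 libraries.

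Of the 15 enzymes, 12 were called with erlotinib, all of them lower, with a median log2 fold change of -0.53, and 6 with osimertinib, also all lower, with a median of -0.24. LDHA was at 1234 and 1331 normalized CPM at T0, at 565 and 580 with erlotinib and at 891 and 955 with osimertinib. The 3 groups were separate, and LDHA fell by 1.16 (SE 0.072, adjusted p = 4.96e-13) and 0.47 (SE 0.071, adjusted p = 4.91e-06). PFKP was at 357 and 325 at T0, at 187 and 174 with erlotinib and at 237 and 208 with osimertinib, again without overlap. It fell by 0.92 (SE 0.076, adjusted p = 1.87e-10) and 0.61 (SE 0.076, adjusted p = 2.32e-07). PGAM1, PKM, ENO1 and TPI1 fell by 0.92, 0.91, 0.90 and 0.76 with erlotinib and by 0.31, 0.25, 0.41 and 0.34 with osimertinib. PFKL and ALDOA fell by 0.40 and 0.63 with erlotinib and were not called with osimertinib. PFKM was called with erlotinib, at -0.28, a call lost without H1650 T0 replicate 2 (adjusted p = 0.0734) or H1650 erlotinib replicate 1 (adjusted p = 0.184).

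GAPDH was at 5340 and 5460 normalized CPM at T0, at 3695 and 3806 with erlotinib and at 5135 and 5120 with osimertinib. Its erlotinib libraries were the lowest. GAPDH fell by 0.53 with erlotinib (SE 0.068, adjusted p = 4.59e-07) and had a log2 fold change of -0.075 with osimertinib (95% interval -0.21 to 0.064, adjusted p = 0.427). GPI likewise fell by 0.41 with erlotinib and had a value of 0.065 with osimertinib (adjusted p = 0.487). HK2 was at 122 and 122 normalized CPM at T0, at 95.9 and 103 with erlotinib and at 119 and 108 with osimertinib. Its log2 fold changes were -0.29 with erlotinib (SE 0.076, adjusted p = 0.00338), a call lost without H1650 erlotinib replicate 1 (adjusted p = 0.0727), and -0.10 with osimertinib (adjusted p = 0.31). ENO2 had log2 fold changes of -0.15 (adjusted p = 0.407) and -0.25 (adjusted p = 0.136). ALDOC had -0.51 (adjusted p = 0.116) and -0.24 (adjusted p = 0.491), from 31 to 59 reads per library, and HK1 was not called with either drug, at -0.11 with erlotinib (adjusted p = 0.219).

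PDK1 was at 33.5 and 40.2 normalized CPM at T0, at 21.98 and 19.1 with erlotinib and at 41.8 and 41.96 with osimertinib. Both erlotinib libraries were below T0, and PDK1 fell by 0.85 with erlotinib (SE 0.11, adjusted p = 4.07e-07), while its osimertinib value of 0.18 (SE 0.10, adjusted p = 0.182) was not called. PFKFB4 was at 28.6 and 27.2 at T0, at 14.5 and 13.5 with erlotinib and at 40.3 and 40.1 with osimertinib. The groups did not overlap, and PFKFB4 fell by 0.99 with erlotinib (SE 0.11, adjusted p = 4.17e-08) and rose by 0.53 with osimertinib (SE 0.10, adjusted p = 0.000153). PFKFB3 fell by 0.41 with erlotinib and had a value of -0.042 with osimertinib (adjusted p = 0.739). All 3 transporters were lower with erlotinib, SLC2A1 by 0.41, SLC16A3 by 0.29 and SLC2A3 by 0.26. The SLC16A3 call was lost without H1650 T0 replicate 1 (adjusted p = 0.582) or H1650 erlotinib replicate 2 (adjusted p = 0.272). The SLC2A3 call was lost without H1650 T0 replicate 1 (adjusted p = 0.12) or H1650 erlotinib replicate 2 (adjusted p = 0.189). With osimertinib SLC2A3 rose by 0.50 (SE 0.087, adjusted p = 3.46e-05), from 72.99 and 69.9 normalized CPM to 96.2 and 106, while SLC2A1 was not called (adjusted p = 0.998).

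Among the 14 other HIF targets, 9 were lower and 2 higher with erlotinib, with a median log2 fold change of -0.60, and 5 were lower and 4 higher with osimertinib, with a median of -0.010. CA9 was at 2.17 and 2.28 normalized CPM with erlotinib and at 8.88 and 6.77 with osimertinib, against 12.5 and 10.4 at T0. Its groups were separate, and it fell by 2.36 with erlotinib (SE 0.25, adjusted p = 1.46e-08). The osimertinib value of -0.55 (adjusted p = 0.046) was not called without H1650 T0 replicate 1 (adjusted p = 0.279), H1650 T0 replicate 2 (adjusted p = 0.0558) or H1650 osimertinib replicate 2 (adjusted p = 0.349). ADM was at 78.9 and 75.6 normalized CPM at T0, at 23.3 and 24.2 with erlotinib and at 44.7 and 37.5 with osimertinib. It fell without overlap, by 1.70 (SE 0.094, adjusted p = 4.79e-14) and 0.91 (SE 0.089, adjusted p = 4.46e-09), and its calls in PC9 cells were in the opposite direction. PPFIA4, whose T0 values are given above, was at 5.26 and 3.58 with erlotinib and at 14.7 and 15.3 with osimertinib. It fell by 1.61 with erlotinib (SE 0.19, adjusted p = 1.32e-07), and its osimertinib value was 0.16 (adjusted p = 0.507).

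VEGFA and NDRG1 were the members called higher with erlotinib in H1650 cells. VEGFA was at 101 and 108 normalized CPM at T0, at 238 and 217 with erlotinib and at 185 and 186 with osimertinib. It rose by 1.12 (SE 0.077, adjusted p = 4.48e-12) and 0.83 (SE 0.077, adjusted p = 1.68e-09), with no overlap between groups. NDRG1 was at 166 and 165 at T0, at 234 and 200 with erlotinib and at 260 and 225 with osimertinib. It rose by 0.39 (SE 0.081, adjusted p = 0.000325) and 0.55 (SE 0.081, adjusted p = 3.71e-06), and the treated groups overlapped each other but not T0. P4HA2 was at 120 and 125 at T0, at 52.4 and 58.5 with erlotinib and at 71.8 and 63.96 with osimertinib. P4HA2 fell by 1.14 (SE 0.090, adjusted p = 7.2e-11) and 0.85 (SE 0.088, adjusted p = 1.36e-08), and P4HA1 by 1.15 and 0.40.

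EGLN3 was at 87.4 and 84.1 normalized CPM at T0, at 60.2 and 49.2 with erlotinib and at 104 and 103 with osimertinib. The groups were separate, and EGLN3 fell by 0.65 with erlotinib (SE 0.087, adjusted p = 8.55e-07). Its value of 0.27 with osimertinib (adjusted p = 0.0138) lost its call without H1650 T0 replicate 2 (adjusted p = 0.102), H1650 osimertinib replicate 1 (adjusted p = 0.0691) or H1650 osimertinib replicate 2 (adjusted p = 0.0542). BNIP3 fell by 1.10 with erlotinib and had a value of -0.15 with osimertinib (adjusted p = 0.147). BNIP3L had -0.25 with erlotinib, a call lost without H1650 T0 replicate 1 (adjusted p = 0.119) or H1650 erlotinib replicate 1 (adjusted p = 0.094), and 0.17 with osimertinib (adjusted p = 0.106). EGLN1 fell by 0.55 with erlotinib and 0.35 with osimertinib, the former not called without H1650 T0 replicate 1 (adjusted p = 0.121) and the latter not without H1650 T0 replicate 1 (adjusted p = 0.662) or H1650 osimertinib replicate 2 (adjusted p = 0.422). The latter was also not called by DESeq2 (adjusted p = 0.0884), with upper quartile normalization or with a minimum of 10 counts per library. KDM3A rose by 0.46 with osimertinib and had -0.17 with erlotinib (adjusted p = 0.101). CA12 and ANKRD37 were called with neither drug, with erlotinib at adjusted p = 0.793 and 0.352.

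HIF1A was at 262 and 261 normalized CPM at T0, at 204 and 234 with erlotinib and at 248 and 268 with osimertinib. Its erlotinib value of -0.25 (SE 0.074, adjusted p = 0.00814) was not called without H1650 erlotinib replicate 1 (adjusted p = 0.219), and with osimertinib it was not called (adjusted p = 0.891). EPAS1 was at 534 and 522 at T0, at 439 and 457 with erlotinib and at 404 and 395 with osimertinib, all treated libraries below T0. It fell by 0.40 with osimertinib (SE 0.068, adjusted p = 2.68e-05). With erlotinib the EPAS1 value was -0.24 (adjusted p = 0.0066), not called without H1650 T0 replicate 1 (adjusted p = 0.057) or H1650 erlotinib replicate 1 (adjusted p = 0.0793).

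**Figure D3:**
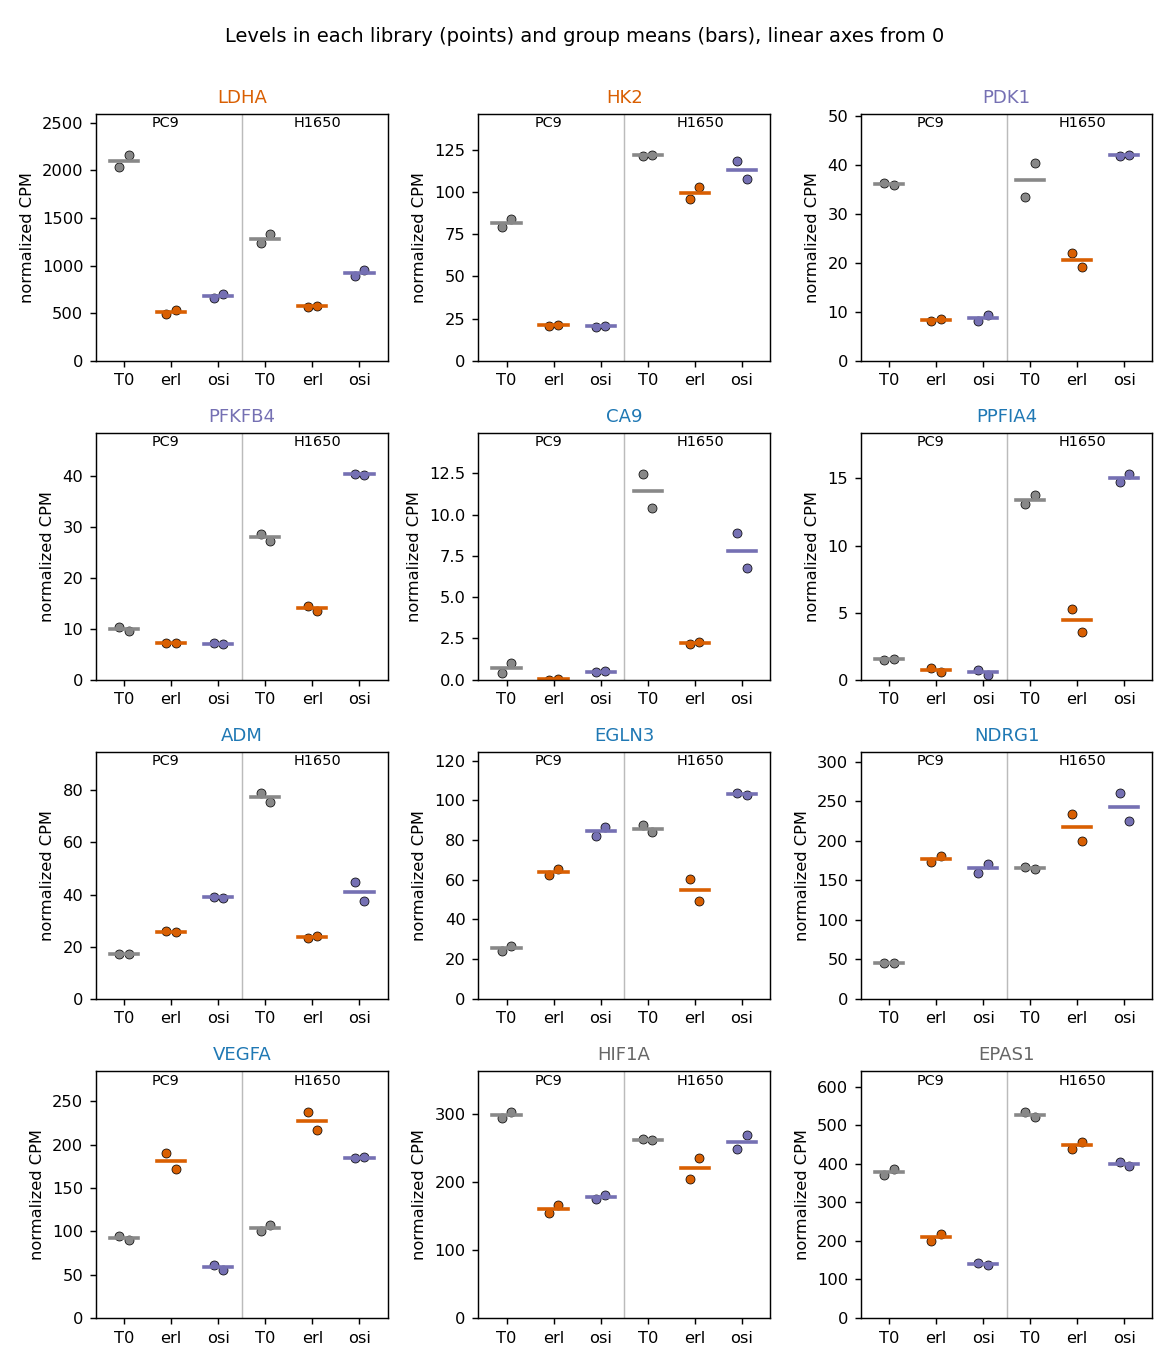
Normalized CPM of 12 members in each library (points) with group means (bars), on linear axes from 0; erl is erlotinib and osi is osimertinib. LDHA, HK2 and PDK1 are far below T0 in the treated PC9 libraries, and in H1650 cells PDK1, PFKFB4, CA9 and PPFIA4 are low with erlotinib, of which all but CA9 lie above T0 with osimertinib.

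Across the 4 comparisons with T0, 9 members were called lower in every one: the enzymes LDHA, ENO1, PKM, TPI1, PGAM1 and PFKP, the collagen hydroxylase subunits P4HA1 and P4HA2, and EPAS1. NDRG1 was called higher in all 4. With erlotinib the lines had opposite calls for ADM, BNIP3L, EGLN3, PFKFB3 and SLC2A3, and with osimertinib for ADM, PFKFB4 and VEGFA. The EPAS1, BNIP3L and SLC2A3 calls for erlotinib in H1650 cells rested on the libraries named above. Of all genes tested, 29.1% and 28.7% were called lower in PC9 cells with erlotinib and osimertinib. In H1650 cells 18.5% and 17.9% were. The share of all genes with any of these patterns was not computed, and comparisons within a line use the same T0 libraries. These counts are therefore a description of the members only.

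Next, osimertinib was compared with erlotinib directly at 36 h. In H1650 cells most of the set was higher with osimertinib, 27 members being higher and 1 lower, which is 75.7%, against 8.75% of all genes tested (5.02% higher and 3.73% lower). In PC9 cells 10 were higher and 2 lower, which is 32.4%, against 16.6% of all genes tested (10.1% higher and 6.41% lower). Under the filter of 10 reads per library, 1624 of 13076 genes were called in H1650 cells and 3019 in PC9 cells. In fits that left out 1 library, 21 of 28 calls were kept throughout in H1650 cells and 9 of 12 in PC9 cells. These comparisons reuse the treated libraries of those with T0.

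In H1650 cells 11 of the 15 enzymes, all 3 kinases, all 3 transporters and 9 of the 14 other HIF targets were higher with osimertinib. Of the members called higher, PFKL, PFKM, PFKP, SLC16A3, P4HA2 and HIF1A lost this call in 1 or more fits that left out 1 library. The median log2 difference was 0.43 for the enzymes and 0.55 for the other HIF targets, and that of all genes tested was 0. From the levels given above, CA9 was higher with osimertinib by 1.81 (SE 0.25, adjusted p = 1.26e-05), PPFIA4 by 1.77 (SE 0.19, adjusted p = 1.65e-07) and PFKFB4 by 1.52 (SE 0.11, adjusted p = 9.21e-11). PDK1 followed at 1.03, BNIP3 at 0.95 and EGLN3 at 0.92. Among the enzymes, LDHA differed by 0.69 (SE 0.071, adjusted p = 8e-08), PKM by 0.66 (SE 0.065, adjusted p = 3.92e-08), and ALDOA, of uncertain level, by 0.71. The single member called lower was VEGFA, by 0.29 (adjusted p = 0.012), and its call was lost without H1650 erlotinib replicate 1 (adjusted p = 0.166), H1650 osimertinib replicate 1 (adjusted p = 0.105) or H1650 osimertinib replicate 2 (adjusted p = 0.0779). For HK2 the difference was 0.19 (95% interval 0.028 to 0.34) and for NDRG1 0.16 (95% interval -0.0047 to 0.33). In all, 17 members were called lower with erlotinib against T0 in H1650 cells and not called lower with osimertinib. Among them, BNIP3L, HIF1A, HK2, PFKM, SLC16A3 and SLC2A3 lost the erlotinib call in fits that left out 1 library. HK2 was not called between the drugs. The share of all genes with this pattern was not computed, so the count is not read as a result about the members.

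In PC9 cells the drugs differed for fewer members. SLC2A3 was higher with osimertinib by 1.15 (SE 0.11, adjusted p = 8.45e-09), SLC2A1 by 0.52 (SE 0.068, adjusted p = 2.3e-06) and EGLN3 by 0.40 (SE 0.086, adjusted p = 0.00113). ADM was at 17.2 and 17.3 normalized CPM at T0, at 25.98 and 25.5 with erlotinib and at 39.1 and 38.9 with osimertinib. Its groups did not overlap, and the drugs differed by 0.60 (SE 0.095, adjusted p = 3.54e-05). CA9 was called higher (adjusted p = 0.00228) on 10 and 9 reads against 0 and 1. VEGFA was lower with osimertinib by 1.63 (SE 0.080, adjusted p = 8.18e-15) and EPAS1 by 0.59 (SE 0.070, adjusted p = 4.62e-07). Of the 15 enzymes, LDHA, PKM and PGAM1 were called, higher by 0.41, 0.37 and 0.29, and the PGAM1 call was lost without PC9 osimertinib replicate 2 (adjusted p = 0.0857). For HK2 the difference was -0.051 (95% interval -0.24 to 0.14) and for PDK1 0.070 (95% interval -0.21 to 0.35).

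**Figure D4:**
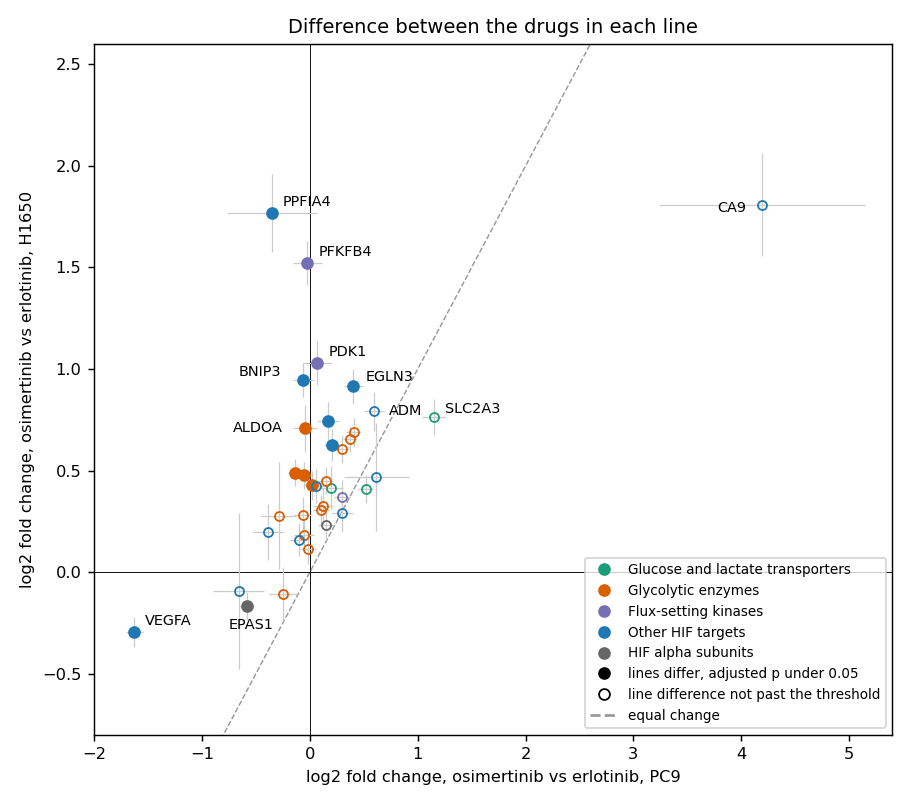
Log2 fold change of osimertinib against erlotinib in PC9 (horizontal) and H1650 (vertical) for the 37 members, with bars of 1 SE; filled points are the 13 members whose difference between the lines had an adjusted p under 0.05. Most points lie above 0 on the vertical axis and near 0 on the horizontal one, with VEGFA at the lower left and CA9, on few reads in PC9, at the right.

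Whether the difference between the drugs depended on the line was tested with an interaction term, H1650 minus PC9. It was called for 13 members, in each case higher in H1650 cells, which is 35.1%, against 5.21% of all genes tested (1.81% higher and 3.4% lower). Under the filter of 10 reads per library it was called for 991 of 13076 genes. The count of members ran from 9 to 20 under other settings. The 13 were the enzymes GPI, ALDOA, TPI1 and ENO1, the kinases PFKFB4 and PDK1, the other HIF targets PPFIA4, VEGFA, BNIP3, P4HA1, EGLN3 and KDM3A, and EPAS1, and 7 of them kept the call in every fit that left out 1 library. TPI1, PPFIA4, P4HA1, EGLN3, KDM3A and EPAS1 lost it in 1 or more of these fits, at an adjusted p of at most 0.164. For PFKFB4 the interaction was 1.54 (SE 0.17, adjusted p = 1.08e-06), from a difference of 1.52 between the drugs in H1650 cells and -0.022 in PC9 cells. For PDK1 it was 0.96 (SE 0.17, adjusted p = 0.000685) and for BNIP3 1.01 (SE 0.13, adjusted p = 4.88e-06), neither being called in PC9 cells (adjusted p = 0.812 and 0.759). For VEGFA it was 1.33 (SE 0.11, adjusted p = 4.46e-09), from -0.29 in H1650 and -1.63 in PC9 cells.

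The change from T0 was then compared between the lines for each drug. With erlotinib 26 members changed differently, with 11 higher and 15 lower in H1650 minus PC9 cells, which is 70.3%, against 40.8% of all genes tested. With osimertinib 27 did, with 18 higher and 9 lower, which is 73%, against 41.9% of all genes tested. Under the filter of 10 reads per library, 7006 and 7208 of 13076 genes were called for erlotinib and osimertinib. In fits that left out 1 library, 21 of 26 and 23 of 27 calls were kept throughout. Those lost in 1 or more of these fits were ALDOA, P4HA1, P4HA2, PFKFB4 and PFKM with erlotinib. For osimertinib they were BNIP3, P4HA2, PFKP and SLC16A3, and BNIP3 lost its call in most of the fits. For the enzymes the difference had a median of 0.39 with erlotinib, with 8 called higher and 4 lower, and of 0.67 with osimertinib, with 10 higher and 2 lower. For the other HIF targets the median was -0.47 with erlotinib, with 8 called, all lower, and 0.053 with osimertinib, with 3 higher and 5 lower. The sign of the latter turned, to -0.20 without H1650 osimertinib replicate 1, to -0.084 without PC9 T0 replicate 2 and to -0.13 over the 12 targets with at least 10 counts in each library, and it was 0.21 without H1650 osimertinib replicate 2.

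ENO2, HK2 and PDK1 had lower fold changes in PC9 than in H1650 cells. The difference between the lines was 1.88 (SE 0.17, adjusted p = 6.5e-10), 1.67 (SE 0.11, adjusted p = 1.45e-12) and 1.28 (SE 0.16, adjusted p = 2.19e-07) with erlotinib and 2.03, 1.90 and 2.23 with osimertinib. ALDOC, ADM and EGLN3 lay at the other end, with -2.50 (SE 0.31, adjusted p = 1.61e-07), -2.28 (SE 0.14, adjusted p = 1.07e-13) and -1.98 (SE 0.13, adjusted p = 3.83e-13) with erlotinib and -1.94, -2.09 and -1.47 with osimertinib. ADM and EGLN3 were lower in PC9 than in H1650 cells at T0. With osimertinib the ADM values of the lines overlapped, at 39.1 and 38.9 normalized CPM in PC9 cells and 44.7 and 37.5 in H1650 cells. Those of EGLN3 did not overlap, at 82.04 and 86.7 and 104 and 103.

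**Figure D5:**
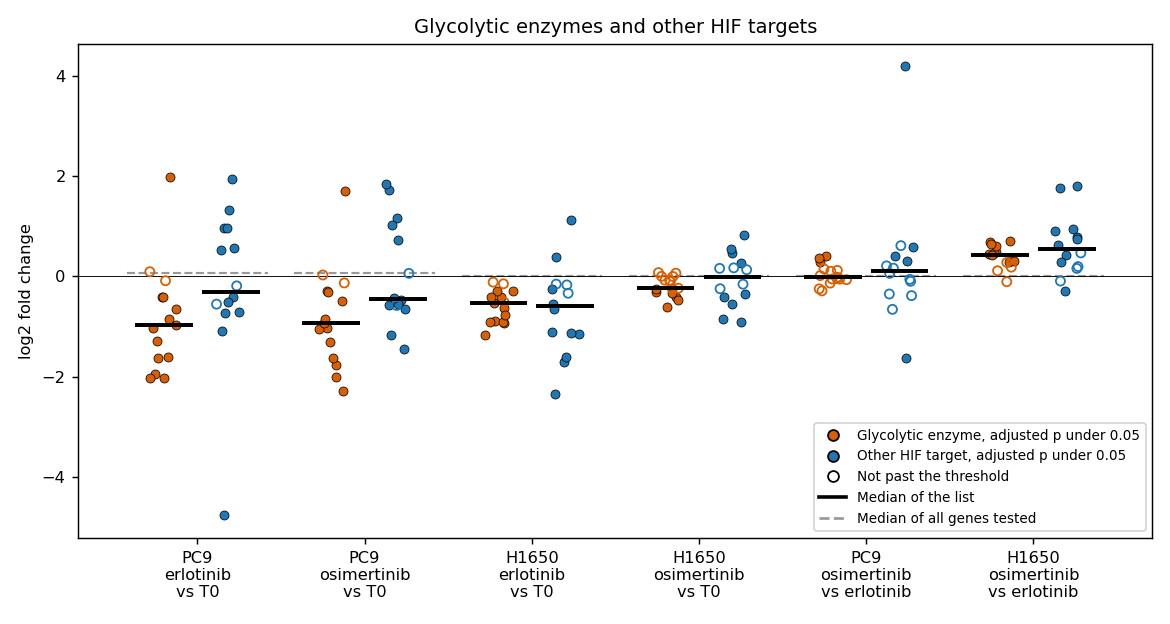
Log2 fold change of the 15 glycolytic enzymes and the 14 other HIF targets in 6 comparisons; filled points passed an adjusted p of 0.05, bars are list medians and the dashed lines the medians of all genes tested. In PC9 cells the enzymes have medians of -0.97 and -0.92 against T0 and the other targets spread to both sides of 0, while in H1650 cells with erlotinib the medians are -0.53 and -0.60.

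Setting the lists side by side, the enzymes had the lower median in PC9 cells with both drugs under every alternative tried. In H1650 cells with erlotinib the order of the medians was not stable: it was -0.60 for the other HIF targets against -0.53 for the enzymes, but -0.47 against -0.55 without H1650 T0 replicate 1, -0.51 against -0.55 without H1650 erlotinib replicate 2, and -0.42 against -0.51 among genes with at least 10 counts in each library. The median of the other targets in PC9 cells with erlotinib turned with the filter: among those with at least 10 counts in every library, which left 12 of 14, it was 0.21 in place of -0.30. The 15 enzymes together took 1.42 ± 0.0198% of all reads in PC9 T0 cells, 0.705 ± 0.0109% with erlotinib and 0.760 ± 0.0338% with osimertinib (SD, n = 2). In H1650 cells their share was 1.59 ± 0.00956%, 1.04 ± 0.00284% and 1.42 ± 0.00361% (SD, n = 2). The share was lower than at T0 in all 4 treated groups by more than these SDs, and GAPDH, PKM, ENO1 and LDHA made up 76.5 to 80.9% of it. It includes ALDOA, whose count is uncertain.

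Other genes of these pathways were counted from lists of their own, higher and lower against T0. Of all genes tested, 61.8% and 61.4% were called in PC9 cells with erlotinib and osimertinib and 36.5% and 35.7% in H1650 cells, and list shares are given in that order. Of the 12 tested among 18 further glycolysis genes, 4 were higher and 6 lower in PC9 cells with erlotinib and 3 and 5 with osimertinib, and in H1650 cells 3 and 5, then 4 and 4. The shares called were 83.3%, 66.7%, 66.7% and 66.7%. Of 13 genes of pyruvate entry to mitochondria, 4 were higher and 6 lower in PC9 cells with erlotinib and 4 and 6 with osimertinib, and in H1650 cells 4 and 1, then 5 and 3. The shares called were 76.9%, 76.9%, 38.5% and 61.5%. PDK2, a relative of PDK1, rose by 1.14 and 1.30 in PC9 cells and by 0.93 and 1.05 in H1650 cells.

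Of the 12 tested among 13 HIF pathway regulators, 6 were higher and 4 lower in PC9 cells with erlotinib and 4 and 4 with osimertinib, and in H1650 cells 1 and 2, then 3 and 3. The shares called were 83.3%, 66.7%, 25% and 50%. Of 23 further HIF targets, 11 were higher and 10 lower in PC9 cells with erlotinib and 9 and 8 with osimertinib, and in H1650 cells 5 and 11, then 10 and 7. The shares called were 91.3%, 73.9%, 69.6% and 73.9%. Shares near those of all genes, as with osimertinib in PC9 cells for the further glycolysis genes and the regulators and with erlotinib in H1650 cells for pyruvate entry, say nothing particular of a list. Nor were the lists set against the larger shares found under the filter of 10 reads per library. At T0, 16 of the further HIF targets were higher and 4 lower in H1650 than in PC9 cells (87.0% called, against 69.6% of all genes tested), with a median log2 difference of 1.07. Between the drugs in H1650 cells, 12 were higher with osimertinib and 1 lower (56.5% called, against 8.75%), with a median of 0.36. PDK2 was chosen after its values were seen. Reads of members with pseudogenes in the table, such as GAPDH, TPI1, PGAM1 and BNIP3, can be shared with those pseudogenes. Of the exon bases of ANKRD37, 35.2% are shared with UFSP2 on the other strand. All these counts carry that uncertainty, and the other members were not examined for pseudogenes.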

How the data were processed

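PolyA RNA-seq of 12 libraries (2 replicates of 6 groups) was analysed. The authors deposited 1 table of read counts per gene, made with featureCounts in DolphinNext, and the submitters' processing notes name GRCh38 and DESeq2. The aligner, annotation release and strand setting are not given in the sources used here. Groups came from the sample labels, and the 37 members were matched by symbol. Genes were filtered with filterByExpr, leaving 19108 and leaving out 41483, and scaled by TMM. One edgeR quasi-likelihood fit (4.0.16, R 4.3.3) over all 12 libraries gave 10 comparisons, each adjusted by Benjamini-Hochberg over all genes tested. The biological coefficient of variation was 0.066, with 6 residual degrees of freedom. Levels per kb use the gene length in the table. DESeq2 1.42.0 was an alternative. The scripts were tested on simulated data. Promoters are RefSeq sequences. Values in every library are given for the 3 highest and 3 lowest called members of each comparison, the HIF alpha subunits and GAPDH, and any other member may be named with its change and call. The counts of the pentose phosphate list are not reported here. The members and lists were chosen with earlier results of these data known. Tests were two-sided. Replicates of a group differed by more than sampling noise. Read totals of 17961765 to 26346187 set the counting error.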

Additional observations from a re-analysis of the deposited data

Results flagged for a closer look

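The counts and genes here stand out because the lines differed in an interaction term (H1650 minus PC9) of edgeR's quasi-likelihood test. In the change from T0 with erlotinib, 26 of the 37 members differed between the lines. ENO2 (1.88), HK2 (1.67) and PDK1 (1.28) had the highest values and ALDOC (-2.50), ADM (-2.28) and EGLN3 (-1.98) the lowest among those called. With osimertinib 27 differed, and the same genes stood at the ends, with PDK1 at 2.23, ENO2 at 2.03, HK2 at 1.90, ADM at -2.09, ALDOC at -1.94 and EGLN3 at -1.47. All 12 values kept their call in every fit that left out 1 library.

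The difference between osimertinib and erlotinib depended on the line for 13 members. By size they were PPFIA4 (2.12), PFKFB4 (1.54), VEGFA (1.33), BNIP3 (1.01), PDK1 (0.96), ALDOA (0.75), ENO1 (0.62), P4HA1 (0.58), GPI (0.53), EGLN3 (0.51), EPAS1 (0.42), KDM3A (0.42) and TPI1 (0.41) on the log2 scale. The PPFIA4 value rests on low levels in PC9 cells, 0.718 ± 0.188 normalized CPM with erlotinib and 0.543 ± 0.213 with osimertinib (SD, n = 2). PPFIA4 was not called without PC9 erlotinib replicate 1 (adjusted p = 0.0604), EPAS1 without PC9 erlotinib replicate 2 (adjusted p = 0.0542), EGLN3 without H1650 erlotinib replicate 2 (adjusted p = 0.109) or PC9 osimertinib replicate 1 (adjusted p = 0.0599), and TPI1 without H1650 erlotinib replicate 1 (adjusted p = 0.0999) or PC9 osimertinib replicate 1 (adjusted p = 0.0996). P4HA1 was not called without H1650 erlotinib replicate 2 (adjusted p = 0.0545), PC9 erlotinib replicate 2 (adjusted p = 0.131) or PC9 osimertinib replicate 1 (adjusted p = 0.071). KDM3A lost its call without 6 of the 8 libraries compared (adjusted p of 0.0647 to 0.164). The doses of the drugs differ, and the part of the doses was not tested.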

How the results depend on the processing

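Alternatives were DESeq2, RLE and upper quartile normalization, no filter on low counts, a threshold of 0.01, a minimum of 10 counts per library, a fit for each line, a replicate block and leaving out each library. None of the 256 called values changed sign, and of 114 uncalled values 35 did without being called. Counts of members called ran from 31 to 33 (PC9 erlotinib), 31 to 33 (PC9 osimertinib), 26 to 32 (H1650 erlotinib) and 15 to 20 (H1650 osimertinib) against T0, 9 to 17 (PC9) and 21 to 30 (H1650) between the drugs, 27 to 36 at T0, 22 to 27 and 23 to 30 for the change compared between lines, and 9 to 20 for the line dependence. The highest of the last came with the replicate block, 20 members in place of 13, and over all comparisons the block gained 22 member calls and lost 0. Deviations of same-numbered replicates correlated with r of 0.12 to 0.30 over the 6 pairs of groups within a line, all over 0.1, and 5 of 9 pairs between lines were over 0.1 (lowest 0.00027, highest 0.38). No label ties a number to a shared culture or day and there are only 2 numbers, so the block stayed an alternative, the correlations within a line being a hint from the data and not the design. With at least 10 counts in every library (12 of 14 other targets tested), the median of the other HIF targets was 0.21 (PC9 erlotinib), -0.13 (PC9 osimertinib), -0.42 (H1650 erlotinib), 0.45 (between drugs, H1650), 1.37 (T0) and -0.13 (osimertinib, between lines). The enzymes' median was -0.88 in PC9 cells with erlotinib under upper quartile normalization and -1.01 with osimertinib without the filter. Leaving out 1 library, the other targets' median ran from -0.55 to -0.27 (PC9 osimertinib), -0.80 to -0.47 (H1650 erlotinib), -0.15 to 0.012 (H1650 osimertinib), 0.55 to 0.68 (between drugs, H1650) and -0.20 to 0.21 (osimertinib, between lines). The log2 fold change of CA9 in PC9 cells with osimertinib ran from -1.10 to 0.25 without 1 library and the difference of PDK1 between the drugs in PC9 cells from -0.021 to 0.17 without 1 library, neither being called. The cause of these shifts was not tested beyond the members and libraries left out. Where a fit leaves 1 library in a group, that library is assumed to vary like the others. Depth limits CA9 in PC9 cells, with at most 21 reads per library, and PPFIA4 was also at low levels in treated PC9 cells.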

Other observations

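Some genes of the further lists, chosen after their values were seen, had the following log2 fold changes against T0 with erlotinib and osimertinib, each called by edgeR's quasi-likelihood test except where stated. BPGM, which diverts a glycolytic intermediate to bisphosphoglycerate, had 1.80 and 2.32 in PC9 cells and 0.40 and 0.52 in H1650 cells. SLC16A7, a pyruvate and lactate transporter, had 1.08 and 2.05 in PC9 cells and 0.47 and 0.44 in H1650 cells. LDHB, the other main lactate dehydrogenase, had -0.78 and -0.76 in PC9 cells and -0.72 and -0.71 in H1650 cells. PGD, an enzyme of the pentose phosphate pathway, had 0.96 and 0.89 in PC9 cells and 0.61 and 0.56 in H1650 cells. Among the HIF targets outside the set, AK4, a mitochondrial adenylate kinase, had -2.83 and -3.09 in PC9 cells and -0.59 and -0.32 in H1650 cells, DDIT4, an inhibitor of mTORC1 signalling, had 2.59 and 0.83 in PC9 cells and 1.51 and 1.31 in H1650 cells, and MXI1, a MYC antagonist, had 2.35 and 1.93 in PC9 cells and 1.01 and 1.06 in H1650 cells. CITED2, which competes with HIF alpha for its coactivators, rose by 3.53 and 3.89 in PC9 cells. In H1650 cells it had -0.030 with erlotinib, which was not called (adjusted p = 0.846), and 0.25 with osimertinib (adjusted p = 0.0402), and the change differed between the lines by -3.56 and -3.65, both called.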
